A study of Mus musculus with 6 samples.

Results

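Genes of ribosome biogenesis and the nucleolus were followed in inguinal lymph node cells of mice with experimental autoimmune encephalomyelitis (EAE), an induced autoimmune disease of the central nervous system. The 50 genes were chosen by symbol for their function: nucleolar processing factors, proteins of small nucleolar ribonucleoproteins (snoRNPs) and subunits of RNA polymerase I. All 50 were found among the 23307 genes of the deposited table, and all 50 passed the filter for testing, which asked for 10 or more normalized read counts on average over the 6 libraries. The control group held 3 SJL mice and the treated group 3 SJL mice given perampanel, a drug against epileptic seizures and an antagonist of the AMPA receptor for glutamate. EAE had been induced in both groups, and the nodes were taken on day 3 after induction and meshed to cell suspensions. Sex and age of the mice, the dose of perampanel and what the control mice received are not stated in the labels. Nodes hold mixed cells, so fewer cells of a type and less RNA per cell cannot be told apart in these bulk libraries.

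Ribosomes are made in the nucleolus, where RNA polymerase I transcribes the precursor of the ribosomal RNAs. Box C/D and box H/ACA snoRNPs then modify that precursor, and large sets of processing factors fold, cut and export the small and the large subunit. Lymphocytes enlarge their nucleoli and raise these transcripts when antigen drives them out of quiescence, and the transcription factor MYC is a known activator of many of the genes.

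No gene of the set passed the test between perampanel and control. With limma on log2(normalized read count + 1) and Benjamini-Hochberg adjustment over 9076 genes, 0 of 50 members were called at an adjusted p under 0.05, beside 1.1% of all genes tested (0.683% as lower and 0.419% as higher). At an unadjusted p under 0.05 limma gave 5 members, all lower under perampanel, that is 5 of 50 beside 9.33% of all genes tested (4.97% lower and 4.36% higher): Ncl, Npm1, Nop56, Dkc1 and Pa2g4. The edgeR quasi-likelihood test on recovered reads also called 0 members beside 1.17% of its genes, and gave 5 at an unadjusted p under 0.05 beside 9.32%. Limma-voom called 0 beside 1.09% and gave 5 beside 9.29%. DESeq2 called 0 of the 31 members to which it gave an adjusted p, beside 1.66% of such genes, and gave 3 at an unadjusted p under 0.05 beside 2.28% of all the genes it fitted, low ones included. The authors' deposited values matched this DESeq2 fit, with adjusted p of 0.0755 for Npm1 and 0.0954 for Pa2g4 in both. They are therefore no separate test. In the authors' deposited table, 31 members have an adjusted p and 0 are under 0.05. The log2 differences were small, from -0.31 for Pa2g4 to 0.29 for Surf6. For 46 members the 95% interval of the difference lay within 1.5-fold in either direction. The other 4 were Polr1b, Polr1e and Nop16, whose intervals reached beyond it on the lower side, and Surf6, on the higher side.

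The differences leaned to the lower side, and the lean itself was not tested. Of the 50 members 36 had a negative log2 difference, 72.0% beside 49.7% of all genes tested, and their median was -0.09 beside 0.00 for all genes tested. The size of the lean varied with single mice. Without control 1, 28 of 50 were negative beside 50.5% of all genes tested, and the median was -0.02. Without each of the other libraries in turn, 33 to 38 were negative. The median was then -0.17 without control 2, -0.15 without perampanel 3 and -0.07 without perampanel 2. In 4 members every perampanel library lay below every control library, 8.0% beside 6.9% of all genes tested, and these were Nhp2, Pes1, Ebna1bp2 and Pa2g4. Rrp1 was the 1 member with every perampanel library above every control, 2.0% beside 7.18%.

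**Figure D1:**
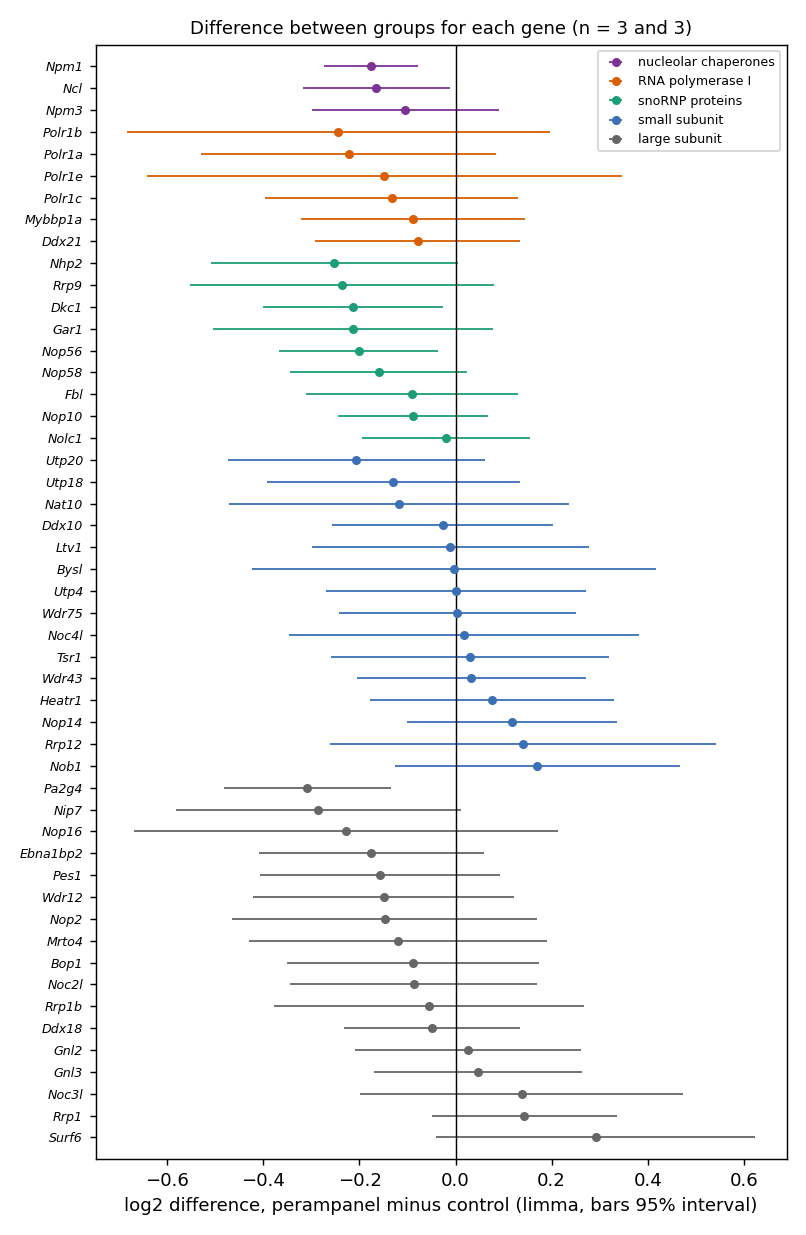
Log2 difference between perampanel and control (x axis, limma on log2(normalized read count + 1), n = 3 and 3) for each of the 50 genes, coloured by role; points are estimates and bars are 95% intervals. Points run from -0.31 (Pa2g4) to 0.29 (Surf6), and the intervals of 5 genes exclude 0.

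Promoter windows of 4 members are shown because they mark the ends of these differences and the motifs discussed beside them: Ncl as a reference nucleolar gene, Pa2g4 with the lowest and Surf6 with the highest difference, and Utp20, the gene of smallest p among those that hold CACGTG. Each runs 5′ to 3′ on the gene's strand over 300 bases, from 250 before to 50 after the annotated start, and comes from RefSeq (GRCm38.p6). They lie at chr1:86359406-86359705 (minus strand), chr10:128565885-128566184 (minus), chr10:88826765-88827064 (minus) and chr2:26902838-26903137 (minus) in the order printed. Capitals mark the motifs searched on both strands: CACGTG (the E-box that MYC and its partner MAX bind), CCGGAAG (the core bound by ETS factors), GGGCGG (the GC box of SP factors), CGCATGC (letters within the NRF1 motif) and AAGATGG (letters within the YY1 motif).
Ncl: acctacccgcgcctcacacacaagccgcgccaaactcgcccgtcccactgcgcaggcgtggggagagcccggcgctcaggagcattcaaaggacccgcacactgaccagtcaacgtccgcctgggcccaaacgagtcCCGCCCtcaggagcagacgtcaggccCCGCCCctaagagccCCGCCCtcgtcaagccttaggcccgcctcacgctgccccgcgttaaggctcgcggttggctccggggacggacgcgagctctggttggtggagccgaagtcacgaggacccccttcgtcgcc
Pa2g4: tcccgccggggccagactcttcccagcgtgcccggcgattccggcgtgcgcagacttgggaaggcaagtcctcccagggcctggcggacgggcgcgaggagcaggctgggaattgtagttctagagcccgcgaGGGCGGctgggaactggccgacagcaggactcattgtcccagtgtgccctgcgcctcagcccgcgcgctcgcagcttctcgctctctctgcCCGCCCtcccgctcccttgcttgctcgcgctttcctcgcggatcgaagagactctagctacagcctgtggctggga
Utp20: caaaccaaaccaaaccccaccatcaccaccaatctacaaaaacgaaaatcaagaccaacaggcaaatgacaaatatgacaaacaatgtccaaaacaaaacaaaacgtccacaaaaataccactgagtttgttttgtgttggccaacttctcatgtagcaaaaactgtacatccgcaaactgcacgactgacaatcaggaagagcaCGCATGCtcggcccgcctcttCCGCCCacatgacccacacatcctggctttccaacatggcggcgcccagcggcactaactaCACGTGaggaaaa
Surf6: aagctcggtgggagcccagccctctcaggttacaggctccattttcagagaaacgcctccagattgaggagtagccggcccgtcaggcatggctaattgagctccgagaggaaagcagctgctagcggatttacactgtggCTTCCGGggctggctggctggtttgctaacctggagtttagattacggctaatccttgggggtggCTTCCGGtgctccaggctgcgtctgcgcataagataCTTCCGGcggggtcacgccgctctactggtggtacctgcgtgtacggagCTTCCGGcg

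The table held 49 windows for 45 members; Npm1, Fbl, Gnl2, Rrp12 and Bop1 had none. GGGCGG was found in 34 windows, or 69.4% beside 35.7% of 32851 windows of all genes. CCGGAAG was found in 18 windows (36.7% beside 8.9%), 4 times in that of Surf6, at 109, 44 and 8 bases before the start and 41 after it. CACGTG was found in 9 windows (18.4% beside 7.2%), those of Ltv1, Mybbp1a, Nop2, Pes1, Tsr1, Utp18, Utp20, Utp4 and Wdr43. CGCATGC was in 2 windows (4.1% beside 3.6%) and AAGATGG in 1 (2.0% beside 6.3%). A match is a string of letters and no measured binding, and the windows of all genes include genes of every kind. The 9 members with CACGTG had a median log2 difference of -0.09, with 6 negative, and the 36 with a window without it -0.11, with 27 negative.

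The nucleolar chaperones Npm1, Ncl and Npm3 all had a negative log2 difference, with a median of -0.17 that ran from -0.06 without control 1 to -0.24 without perampanel 3. Npm1, nucleophosmin, a histone and ribosome chaperone of the outer nucleolus (chromosome 11, GRCm38), was at 4229, 3796 and 4011 normalized read counts in the controls, by replicate number, and at 3316, 3470 and 3885 in the treated mice. Only perampanel 3 lay within the range of the controls. The group means were 4012 ± 217 and 3557 ± 294 (SD, n = 3 each), with a log2 difference of -0.18 ± 0.05 (SE, 95% interval -0.27 to -0.08) and a limma adjusted p of 0.0733, the smallest of the set. Without perampanel 3, a fit that called 0.945% of all genes tested, it was -0.24 with an adjusted p of 0.00444, and without control 1 it was -0.14 with 0.452. These are the lowest and highest adjusted p over its alternatives. Ncl, nucleolin, which binds the nascent ribosomal RNA (chromosome 1), was at 2283, 1746 and 1924 in controls and at 1625, 1643 and 2036 under perampanel. Its groups overlapped, since perampanel 3 was above 2 of the 3 controls (log2 difference -0.17 ± 0.07, adjusted p = 0.473). Ncl had an adjusted p of 0.0469 without perampanel 3 (log2 -0.27) and of 0.933 without control 1 (-0.06), within a range of 0.0469 to 0.970 over its alternatives. Npm3, a relative of nucleophosmin, was at 470, 373 and 401 in controls and at 419, 328 and 412 under perampanel, with groups that overlapped throughout (log2 -0.10, adjusted p = 0.790).

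The RNA polymerase I group held 4 subunits and 2 nucleolar regulators. All 6 had a negative log2 difference, from -0.24 to -0.08 with a median of -0.14. Of the 6, 0 were under an unadjusted limma p of 0.05, beside 9.33% of all genes tested. Polr1a, the largest catalytic subunit, was at 86.6, 81.3 and 99.2 normalized read counts in controls and at 68.3, 88.8 and 72.1 under perampanel. Perampanel 2 lay among the controls, and the other 2 treated libraries below them (log2 -0.22 ± 0.15, adjusted p = 0.687). Polr1b, the second largest subunit, was at 40.4, 39.3 and 47.8 in controls and at 29.6, 47.4 and 32.1 under perampanel, in the same arrangement (log2 -0.24 ± 0.21, adjusted p = 0.777). Polr1c, a subunit shared with RNA polymerase III, was at 100, 115 and 114 in controls and at 95.9, 102 and 102 under perampanel (log2 -0.13 ± 0.13, adjusted p = 0.809). Control 1 was below 2 treated libraries, so that the groups overlapped. Polr1e, a further subunit, varied by nearly as much within each group, from 29.2 to 50.2 in controls and from 27.5 to 52.0 under perampanel. The helicase Ddx21 (-0.08) and Mybbp1a, a nucleolar repressor (-0.09), were nearest to 0 in this group. Without control 1, 3 of the 6 were negative with a median of -0.09, and without control 2 the median was -0.23.

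All 9 proteins of snoRNPs had a negative log2 difference, from -0.25 to -0.02 with a median of -0.20. Without control 1 and without perampanel 2, 7 of the 9 were negative, and without perampanel 1 the median was -0.13. Nop56, a core protein of box C/D snoRNPs, which guide methylation of ribosomal RNA (chromosome 2), was at 576, 540 and 579 normalized read counts in controls and at 441, 473 and 567 under perampanel. Perampanel 3 was again inside the range of the controls (log2 -0.20 ± 0.08, adjusted p = 0.371). Dkc1, dyskerin, the pseudouridine synthase of box H/ACA snoRNPs and of telomerase (chromosome X), was at 344, 289 and 366 in controls and at 281, 281 and 293 under perampanel. The treated mice were close to each other, and control 2 lay inside their range (log2 -0.21 ± 0.09, adjusted p = 0.440). Nhp2, a dyskerin partner, was at 145, 121 and 129 in controls and at 99.9, 113 and 118 under perampanel. These groups did not overlap, and the difference did not pass (log2 -0.25 ± 0.13, adjusted p = 0.544). Fbl, fibrillarin, the methyltransferase of box C/D snoRNPs, was at 389, 284 and 310 in controls and at 307, 262 and 353 under perampanel, with wide overlap (log2 -0.09 ± 0.11, adjusted p = 0.849). Its sign turned without control 1 (0.04) and without perampanel 2 (0.02). Nop58, the second core protein of the box C/D class, was at -0.16, Rrp9, which belongs to the U3 snoRNP, at -0.24, and the H/ACA proteins Gar1 and Nop10 at -0.21 and -0.09 on the log2 scale. Nolc1, a snoRNP chaperone, was at -0.02.

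Factors of the small subunit had differences on both sides of 0. Of 15 members 6 were negative and 9 positive, with a median of 0.00 and a range from -0.21 to 0.17. Without control 1, 3 were negative, without perampanel 1 the median was 0.08 and without perampanel 3 it was -0.05. Of the 15, 0 were under an unadjusted limma p of 0.05, beside 9.33% of all genes tested. Utp20, a scaffold protein of the processome that assembles on the nascent transcript, was at 129, 117 and 114 normalized read counts in controls and at 106, 90.8 and 116 under perampanel. Perampanel 3 lay among the controls (log2 -0.21 ± 0.13, adjusted p = 0.668). Nob1, the endonuclease that makes the final cut of the small-subunit RNA, was at 101, 101 and 83.6 in controls and at 111, 87.7 and 126 under perampanel. Its groups overlapped through perampanel 2 (log2 0.17 ± 0.14, adjusted p = 0.767). Nop14, a processome protein, was at 156, 179 and 174 in controls and at 170, 189 and 192 under perampanel, with perampanel 1 below 2 controls (log2 0.12 ± 0.11, adjusted p = 0.789). The processome members Utp4 (0.00), Wdr75 (0.00), Wdr43 (0.03), Heatr1 (0.08), Noc4l (0.02) and Utp18 (-0.13), the ribosomal RNA acetyltransferase Nat10 (-0.12) and the helicase Ddx10 (-0.03) did not pass. The late factors Bysl (0.00, just under 0), Ltv1 (-0.01), Tsr1 (0.03) and Rrp12 (0.14) did not pass either. Exons of Bysl share 361 bases with Ccnd3 on the opposite strand, which averaged 604 normalized read counts, and exons of Tsr1 share 1240 bases with Srr at 10.8. The reads of such pairs cannot be told apart without strand.

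Factors of the large subunit held both ends of the set. Of 17 members 12 were negative and 5 positive, with a median of -0.09, which was -0.03 without control 1 and -0.18 without control 2. Pa2g4, a growth-regulated protein that binds preribosomes and ribosomes (chromosome 10), was at 684, 512 and 560 normalized read counts in controls and at 455, 454 and 500 under perampanel. Every treated library was below every control, the highest of them, perampanel 3, by little, and control 1 stood well above the other 2. The means were 586 ± 88.6 and 470 ± 26.5, with a log2 difference of -0.31 ± 0.08 (95% interval -0.48 to -0.14) and a limma adjusted p of 0.0752. It was -0.40 without control 2 (adjusted p = 0.0387, in a fit that called 0.606% of all genes tested; with no filter on low values, 0.00723 beside 0.926%) and -0.19 without control 1 (0.582), within a range of 0.00723 to 0.582 over its alternatives. Nip7, which acts in large-subunit processing, was at 115, 89.5 and 103 in controls and at 72.4, 87.7 and 91.6 under perampanel, with perampanel 3 just above control 2 (log2 -0.29 ± 0.14, adjusted p = 0.558). Surf6, a nucleolar protein that binds nucleic acid, was at 54.1, 63.9 and 75.3 in controls and at 87.7, 69.6 and 79.0 under perampanel. Only perampanel 2 lay below a control (log2 0.29 ± 0.16, adjusted p = 0.606).

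The complex of Pes1, Bop1 and Wdr12, which is needed for large-subunit processing, was at -0.16, -0.09 and -0.15 on the log2 scale. Pes1 was at 126, 121 and 118 normalized read counts in controls and at 108, 106 and 112 under perampanel, without overlap (adjusted p = 0.738). Ebna1bp2, a large-subunit assembly factor, was at 156, 140 and 145 in controls and at 124, 131 and 134 under perampanel, also without overlap (log2 -0.18, adjusted p = 0.675). Rrp1 was at 233, 243 and 227 in controls and at 285, 244 and 250 under perampanel, where perampanel 2 cleared control 2 by about 1 normalized read count (log2 0.14, adjusted p = 0.678). Among the rest, the ribosomal RNA methyltransferase Nop2 (-0.15), Nop16 (-0.23), Mrto4 (-0.12), Noc2l (-0.09), Rrp1b (-0.06) and the helicase Ddx18 (-0.05) were negative. The nucleolar GTPases Gnl2 (0.03) and Gnl3 (0.05) and Noc3l (0.14) were positive, and 0 of these 9 passed.

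**Figure D2:**
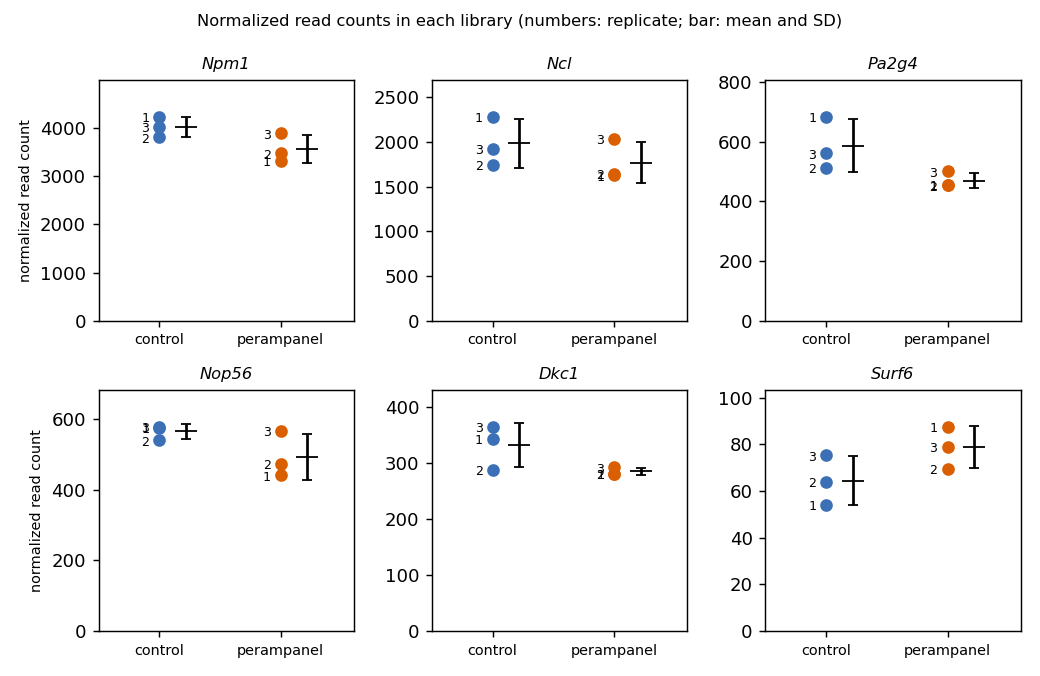
Normalized read counts (y axis, from 0) of 6 members in each library. They are the 5 members with an unadjusted limma p under 0.05, and Surf6, which has the highest log2 difference. Points are mice numbered by replicate, and the bar beside them is the group mean with its SD (n = 3). Perampanel 3 is the highest treated library for Npm1, Ncl, Pa2g4, Nop56 and Dkc1, and for Pa2g4 alone of the 6 the groups do not overlap.

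The libraries within a group differed by as much as the groups. Of the 50 members 24 had their highest value in control 1 and 10 in perampanel 3, and 18 had their lowest in perampanel 1 and 16 in perampanel 2. The members together took 0.789%, 0.671% and 0.724% of all normalized read counts in the 3 controls, and 0.624%, 0.638% and 0.720% in the 3 treated mice. The summed level was 14620 ± 1150 in controls and 13420 ± 1080 under perampanel (SD, n = 3 each), and perampanel 3 lay above control 2. On average a member's log2 value stood 0.13 above its own 6-library mean in control 1. The same average was -0.05 for control 2 and 0.04 for control 3, and it was -0.09, -0.07 and 0.04 for the treated mice in order.

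**Figure D3:**
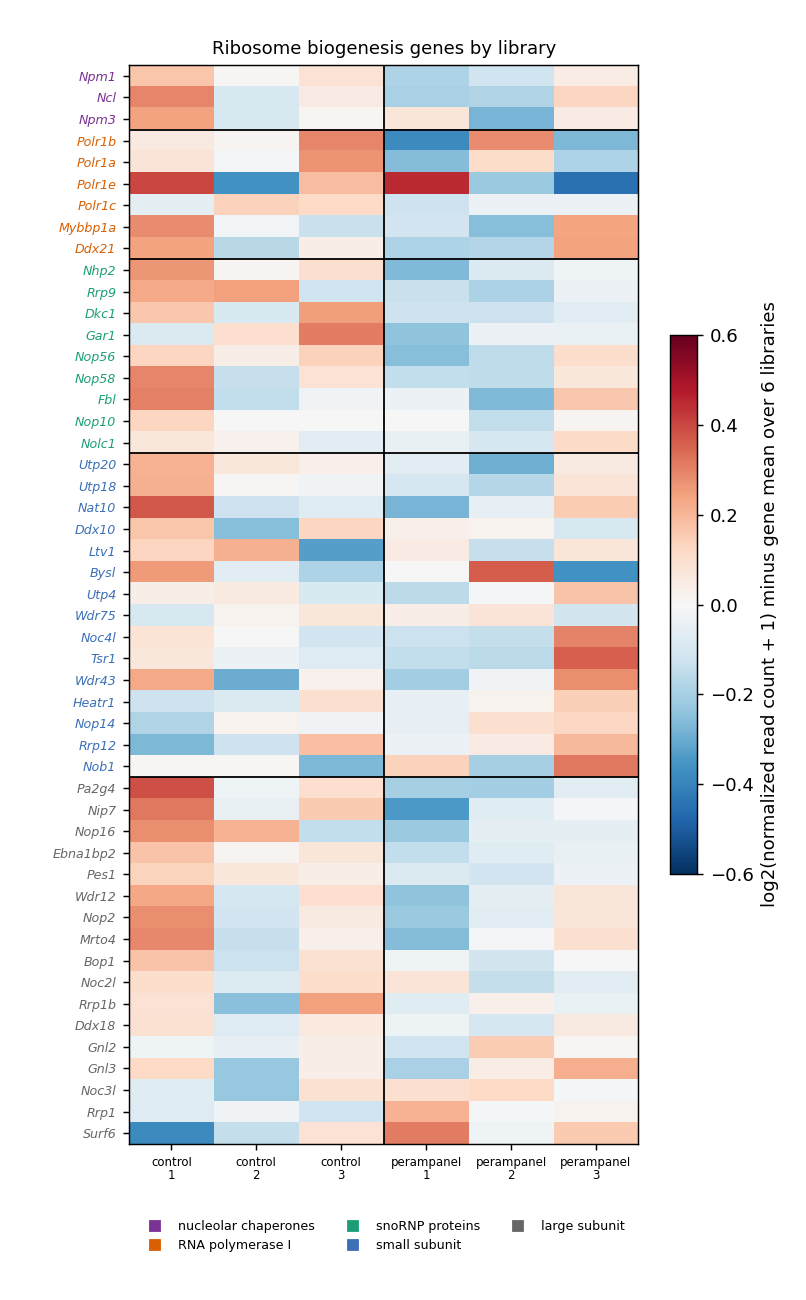
Log2(normalized read count + 1) minus the gene's mean over the 6 libraries (colour, blue low and red high) for the 50 genes (rows, by role) in each library (columns). Control 1 holds the highest value of 24 genes, perampanel 3 that of 10, and the lowest values lie mostly in perampanel 1 (18 genes) and perampanel 2 (16).

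Levels between members were compared per kilobase of coding sequence, over all 6 libraries. Npm1 stood highest at 4321 ± 388 normalized read counts per coding kilobase (SD, n = 6), and Nop10, a very short H/ACA protein, followed at 2360 ± 143 without overlap between them. Ncl (885 ± 121) and Npm3 (763 ± 91.2) overlapped each other and lay below Nop10. Pa2g4 followed at 446 ± 73.0, and from there down to Dkc1 at 202 ± 23.8 each gene overlapped its neighbour. The lowest were Polr1a (16.1 ± 2.20), Utp20 (13.4 ± 1.53), Polr1b (11.6 ± 2.22) and Rrp12 (11.1 ± 1.39), which overlapped in that order. Untranslated sequence is not counted in these lengths, which raises genes of short coding sequence such as Nop10.

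A wider set of 121 ribosome biogenesis genes outside the 50 was listed by function, of which 119 were tested. Limma called 0 of them in either direction, with 4 of 119 at an unadjusted p under 0.05 beside 9.33% of all genes tested (3 lower beside 4.97%, 1 higher beside 4.36%); edgeR, DESeq2 and limma-voom also called 0. Their median log2 difference was -0.04, with 67 of 119 negative beside 49.7% of all genes tested. Factors of RNA polymerase I initiation and its other subunits (12 tested, 7 negative) had a median of -0.09, with Polr1d of smallest p at -0.18 (adjusted p = 0.580). Among snoRNP assembly factors 11 of 12 were negative with a median of -0.11, and Ruvbl2, an ATPase of the R2TP assembly complex, was at -0.19 (adjusted p = 0.634). Other small-subunit factors (40 tested, 22 negative) had a median of -0.02. There Pno1, the partner of Nob1, was at 129, 105 and 104 normalized read counts in controls and at 75.5, 86.7 and 91.6 under perampanel, without overlap (log2 -0.41 ± 0.14, adjusted p = 0.238). Tbl3 (-0.76) and Abt1 (-0.48), named after their values were seen, were the other 2 of the 3 lower genes. Other large-subunit factors (42 tested, 19 negative) had a median of 0.01, with the GTPase Gtpbp4 at 0.23 (adjusted p = 0.443), the 1 higher gene. For the RNA exosome, which trims ribosomal RNA precursors, 13 of the 14 listed genes were tested, 8 were negative and the median was -0.01, with its subunit Exosc3 at -0.30 (adjusted p = 0.550).

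Myc, which activates many of these genes, was at 144, 136 and 163 normalized read counts in controls and at 92.8, 120 and 133 under perampanel. The groups did not overlap, and the difference did not pass limma (log2 -0.37 ± 0.13, 95% interval -0.64 to -0.10, adjusted p = 0.279). Its partner Max (-0.08) and its classical target Odc1, the entry enzyme of polyamine synthesis (-0.19), did not pass. The antagonists Mxd1 (0.49), Mxd4 (0.26), Mxi1 (0.25) and Mnt (0.01) were positive and did not pass either, with Mxd1 at an adjusted p of 0.501. Of these 7 genes 3 were negative and 4 positive, with a median of 0.01. Limma gave 1 lower (Myc, beside 4.97% of all genes tested) and 1 higher (Mxd1, beside 4.36%) at an unadjusted p under 0.05.

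A list of 20 proliferation genes was also followed. It held Mki67, Top2a, Ccna2, Ccnb1, Ccnb2, Cdk1, Rrm1, Rrm2, Tyms, Mcm2 to Mcm7, Pcna, Tk1, Pclaf, Birc5 and Tubb5. Like the other lists it was chosen with earlier results of these data known. Of the 20 tested, 11 fell by limma beside 0.683% of all genes tested. The number that rose was 0, beside 0.419%, and the median log2 difference of the 20 genes was -0.89. Their summed level was 3450, 2857 and 2992 normalized read counts in controls and 2328, 2087 and 1684 under perampanel. Perampanel 3 was the lowest library for these genes and the highest treated library for the ribosome biogenesis genes. No test of the difference between the 2 gene sets was made.

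**Figure D4:**
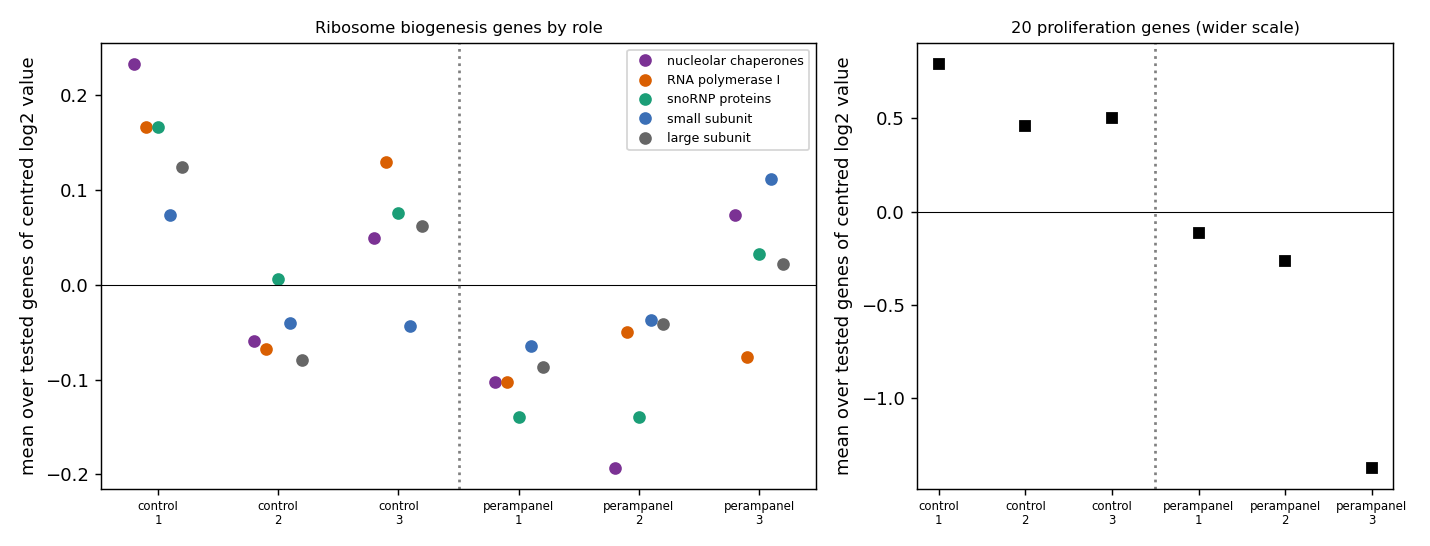
Mean over tested genes of the log2 value minus the gene's mean over 6 libraries (y axis) in each library (x axis), for the 5 role groups (left) and for 20 proliferation genes (right, wider scale). In the left panel control 1 is highest for all 5 role groups except the small-subunit factors, where perampanel 3 is; on the right every treated library is below every control.

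Libraries held 1779724 to 2208589 reads assigned to genes, every treated one fewer than every control, and members had between 24 and 4367 reads in a library. The label of lymphocytes was checked with marker lists. All 20 T cell markers were tested, with summed levels of 27560 to 29100 normalized read counts in controls and 30160 to 31310 under perampanel. By limma 3 of the 20 rose (Trac, Tcf7 and Il7r) beside 0.419% of all genes tested, and 0 fell. The log2 difference was positive for 12 and negative for 8. In 2, Cd8a (log2 -0.36, adjusted p = 0.130) and Cd8b1 (-0.14, 0.723), every treated library lay below every control, beside 6.9% of all genes tested. In 5 every treated library lay above, beside 7.18%. Of 14 B cell markers 8 were tested, with sums of 635 to 867 and 612 to 677, 0 called and none at 0. Plasma cell markers (3 of 7 tested, Sdc1 at 0 in all libraries) summed to 142 to 164 in controls and 115 to 124 under perampanel. Myeloid and dendritic markers (2 of 15 tested, Adgre1, Clec9a and Cd14 at 0) summed to 104 to 146 and 111 to 147, natural killer markers (3 of 8 tested) to 119 to 154 and 109 to 132, and stromal and endothelial markers (1 of 11 tested, Ccl19 and Ccl21a at 0) to 179 to 209 and 202 to 250. Erythroid markers (1 of 6 tested) summed to 7.31 to 14.8 in controls and 9.08 to 41.2 under perampanel, the highest being perampanel 3. The part of depth and of these cell types in the differences was not tested.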

How the data were processed

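RNA-seq of inguinal lymph node cells was analysed from 1 table of 23307 genes in 6 samples. The deposited values are a normalized signal: in each sample, reads per gene were scaled by a single size factor. The authors also deposited log2 fold changes, a test score and p-values. Per the submitters' processing notes, DESeq2 and DESeq were used with GRCm38; which aligner and counter made the reads per gene is not given. Poly(A) libraries came from a kit that does not mark strand, per the labels' protocols. Whole reads were recovered from the value steps in all samples (100% within 1e-06) for count tests as alternatives.

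Genes with a mean of at least 10 (9076) were tested on log2(value + 1) by limma-trend in R 4.3.3 (version 3.58.1), with no covariate, and called at a Benjamini-Hochberg adjusted p under 0.05. Fold changes on this scale understate changes of low genes. Each group holds 3 animals per the labels, and within groups the libraries differed beyond sampling noise (chi-square per degree of freedom 1.57 to 1.84). Alternatives were limma-voom, edgeR 4.0.16 and DESeq2 1.42.0, all on the recovered reads, TMM, quantile normalization, pseudocounts of 0.1 and 10, other filters, the replicate number as a block and each library left out. On data simulated for this comparison (9052 genes tested), limma recovered 36.5% of genes changed by 0.5, 85.3% by 1 and 100% by 2 on the log2 scale, with 7 false among 145 calls.

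The members, gene lists and tests were chosen with earlier results of these data known. Values per library are given for Ncl, Npm1, Fbl, Polr1a, Dkc1, Nop56, the 3 members of smallest p in each role, and Myc; of the wider lists, the gene of smallest p is named. Pes1, Ebna1bp2 and Rrp1 were added after their values were seen. GENCODE mouse release 21 (GRCm38), where each of the 50 symbols matched once, gave positions, coding lengths and overlaps, and RefSeq gave promoters. By BLAST, 9 members (Ddx18, Ddx21, Fbl, Mrto4, Nop56, Npm1, Npm3, Pes1 and Wdr12) have copies elsewhere, mostly processed pseudogenes, with at least 95% identity over at least 300 bases, so their counts are uncertain. Exons of 19 members overlap another gene.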

Additional observations from a re-analysis of the deposited data

How the results depend on the processing

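With 3 mice a group, genes changed by 0.5 on the log2 scale were recovered in 36.5% of simulated cases. The changed genes were drawn from all with a mean of at least 10, whereas 45 of the 50 members averaged at least 50. Changes smaller than 0.5 were not simulated, and the members' differences ran from -0.31 to 0.29. The 36.5% is therefore no recovery rate for the members, and 0 calls do not show that they are alike in both groups. What depth and the number of mice contributed was not tested. With no filter on low values, 179 genes were called (120 lower and 59 higher) and 2 members, Npm1 (adjusted p = 0.0185) and Pa2g4 (0.00723), against 100 genes and 0 members in the reported fit. DESeq2 called 50 genes, 19 of them lower, and quantile normalization called 25 as higher; both called 0 members. With 1 library left out, 44 to 113 genes were called (25 to 72 lower, 16 to 41 higher), and 0 to 2 members: Pa2g4 without control 2, and Ncl and Npm1 without perampanel 3. The count of all genes was 44 without control 1 and 55 without control 2. In these fits the log2 difference of Fbl ran from -0.19 to 0.039 (0.039 without control 1 and 0.018 without perampanel 2) and that of Npm3 from -0.18 to 0.0096 (the latter without perampanel 2); the causes were not tested. Other alternatives (TMM, pseudocounts of 0.1 and 10, a mean of at least 50, edgeR and limma-voom) called 0 members.

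The replicate number as a block gave 103 genes and 0 members. Same-numbered libraries of the 2 groups had correlations of 0.033, 0.033 and 0.016 between their deviations from the group means, too low to pair them, although each library correlated best with its own number.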

Other observations

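Several members also carry snoRNA genes inside their own gene bodies. In the annotation 7 members hold 21 snoRNA genes on their own strand: Ncl, Nop56, Nop58, Dkc1, Wdr43, Tsr1 and Gnl3. Among them are Snord82 and Snora75 in Ncl, Snord57 and Snord110 in Nop56, and Snord70 in Nop58, so these transcripts supply guide RNAs as well as proteins. Of the hosts, Nop56, Nop58 and Dkc1 encode proteins of the snoRNPs. The 7 hosts had a median log2 difference of -0.16, with 4 negative, and the other 43 members -0.09, with 32 negative. None was called by limma, and no test of the difference was made. Poly(A) libraries measure the host mRNA and not the processed snoRNAs.

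The 16 members that averaged 200 normalized read counts or more, whose counting error is the smallest, had a median log2 difference of -0.09 with 13 negative (81.2%), beside a median of 0.01 with 45.5% negative among the 1554 genes tested at that level. Counting error leaves out the spread between mice. The share of these 16 was not followed with single libraries left out. Among all 50 members, 28 were negative without control 1, with a median of -0.02.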
